A study of Mus musculus with 12 samples.

Results

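Endothelial genes, a set of 35 symbols that mark or build the lining of blood vessels, were followed through RNA of mouse cardiac precursors. The members are given by name, and all 35 were found among the 35856 rows of the expression table. The cells were grown from C57BL/6 embryonic stem cells of 3 lines that all carry Tir1, which are SUZ12-AID, MTF2-AID and AID-JARID2. In each line 1 subunit of Polycomb repressive complex 2 (PRC2), which methylates histone H3 and keeps developmental genes silent, bears an auxin-inducible degron (AID). The plant protein TIR1 then directs the tagged protein to degradation once auxin is present. SUZ12 belongs to the core of the complex. MTF2 joins 1 variant of that core and JARID2 another, both as accessory proteins. The groups were cells given 50 µM indole-3-acetic acid, the auxin used, and untreated cells of the same line, with 2 libraries in each of the 6 groups. When auxin was added and for how long are not given in the labels. All groups passed through 48 h as embryoid bodies, 43 h of reaggregation with Activin A, BMP4 and 5 ng/mL VEGF, and 32 h as a monolayer with VEGF, basic FGF and FGF10.

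Endothelial cells arise from mesoderm that carries the VEGF receptor KDR, and part of the heart comes from the same mesoderm. The ETS factor ETV2 starts the endothelial and blood programme, after which the ETS factors ERG and FLI1 and the SOX factors SOX7 and SOX18 keep endothelial genes on. VEGF and angiopoietin receptors then guide growth of the vessel, junction proteins such as VE-cadherin (Cdh5) seal it, and Notch signals through DLL4 set arterial identity. Several of these genes are also used outside endothelium: Pecam1 by pluripotent cells, Cd34 and Fli1 by blood progenitors, and Kdr and Nrp1 by other mesoderm.

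Values are TPM, in which reads are divided by transcript length and then brought to a common sum per library. They imply 10138920 to 17173072 assigned reads per library. The tagged transcripts were present in every library, and since the degron acts on protein their levels do not measure depletion. Suz12 was at 106 and 109 TPM in SUZ12-AID with auxin, against 113 and 127 TPM untreated. Mtf2 was at 25.97 and 24.7 TPM in MTF2-AID with auxin, against 22.4 and 21.7 TPM untreated. Jarid2 was at 104 and 113 TPM in AID-JARID2 with auxin, against 45.3 and 43.5 TPM untreated. There was no untagged line with auxin, and 1 tagged line for each subunit, so that effects of auxin or of a line cannot be told apart from loss of the subunit. Among markers of cardiac precursors Hand1 lay between 1352 and 2552 TPM in untreated libraries and Hand2 between 43.5 and 54.7 TPM, while Nkx2-5 reached at most 6.50 TPM. Of the other cardiac markers listed, Tnnt2 ran from 17.2 to 146 TPM and Tnni1 from 26.6 to 150 TPM over these libraries. Myl7, Actc1, Mef2c and Myh7 lay between 1.77 and 52.5 TPM, and Myh6 and Tbx5 reached at most 2.61 and 0.393 TPM. RNA came from whole cultures, in which fewer endothelial cells and less RNA per cell cannot be told apart. The replicates are called biological without word of separate cultures, so the p values take in no more than the spread among the libraries at hand.

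Promoters from RefSeq (GRCm38.p6, 250 bases before to 50 after the start) were at hand for 21 members. Printed here are those of the 2 members with the largest increase and the 2 with the largest decrease in AID-JARID2 that have one, since these 4 genes moved most in opposite ways. Capitals mark the ETS cores AGGAAG and CGGAAG and the SOX core ACAAT, each on either strand. The positions are chr1:194938571-194938870 (plus strand) for Cd34, chr9:37401722-37402021 (plus) for Robo4, chr8:128358823-128359122 (plus) for Nrp1 and chr5:75978406-75978705 (minus) for Kdr.
Cd34: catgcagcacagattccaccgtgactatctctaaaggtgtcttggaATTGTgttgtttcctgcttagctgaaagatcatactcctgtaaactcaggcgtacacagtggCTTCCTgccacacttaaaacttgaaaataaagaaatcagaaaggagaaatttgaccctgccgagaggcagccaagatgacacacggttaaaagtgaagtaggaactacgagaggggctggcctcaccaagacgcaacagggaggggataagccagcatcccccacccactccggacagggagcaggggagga
Robo4: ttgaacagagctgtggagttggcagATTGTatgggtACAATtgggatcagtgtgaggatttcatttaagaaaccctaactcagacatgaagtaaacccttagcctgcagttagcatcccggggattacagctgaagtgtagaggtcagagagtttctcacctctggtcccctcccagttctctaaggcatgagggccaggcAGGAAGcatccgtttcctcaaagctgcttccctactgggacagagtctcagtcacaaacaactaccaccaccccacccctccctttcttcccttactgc
Nrp1: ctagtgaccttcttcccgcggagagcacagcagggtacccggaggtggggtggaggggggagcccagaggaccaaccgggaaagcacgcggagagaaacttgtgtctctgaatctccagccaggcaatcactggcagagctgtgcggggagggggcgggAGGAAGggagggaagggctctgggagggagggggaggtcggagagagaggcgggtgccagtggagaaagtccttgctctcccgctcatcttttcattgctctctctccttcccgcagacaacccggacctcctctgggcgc
Kdr: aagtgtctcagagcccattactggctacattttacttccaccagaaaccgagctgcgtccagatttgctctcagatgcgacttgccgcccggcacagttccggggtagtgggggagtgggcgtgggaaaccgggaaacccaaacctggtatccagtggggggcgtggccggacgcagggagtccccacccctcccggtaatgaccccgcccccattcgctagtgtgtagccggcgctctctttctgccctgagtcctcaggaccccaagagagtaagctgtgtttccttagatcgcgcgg
AGGAAG was found in Cd34, Robo4 and Nrp1, ACAAT in Cd34 and Robo4, and none of the 3 cores in the window of Kdr. Over the 25 promoters of the 21 members, AGGAAG was in 56%, against 35.4% of the 32851 promoters in the RefSeq table. CGGAAG was in 8% of the members' promoters and 16.9% of all, and ACAAT in 28% and 31%. The ratio of observed to expected CpG was 0.374 for Cd34, 0.106 for Robo4, 0.474 for Nrp1 and 0.689 for Kdr. Its median was 0.374 over the members' promoters and 0.384 over all. With 14 members lacking an entry, no relation between promoter letters and the response was drawn.

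The 3 lines differed in the direction of the response. In SUZ12-AID both auxin libraries lay above both untreated ones for 30 of the 35 members and below for 2, Pecam1 and Etv2, where 34% and 15.3% of all genes tested did so. In MTF2-AID they lay above for 0 members and below for 30, against 24.1% and 21.8% of all genes. In AID-JARID2 they lay above for 12 and below for 14, against 37.7% and 35% of all genes, shares near the background. The median level of the 35 members, on the log2(TPM + 1) scale, was 3.55 and 3.68 in SUZ12-AID with auxin, against 2.06 and 2.14 untreated. It was 2.26 and 2.14 in MTF2-AID with auxin, against 2.84 and 3.23 untreated, and 1.10 and 1.03 in AID-JARID2 with auxin, against 1.04 and 0.81 untreated.

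**Figure D1:**
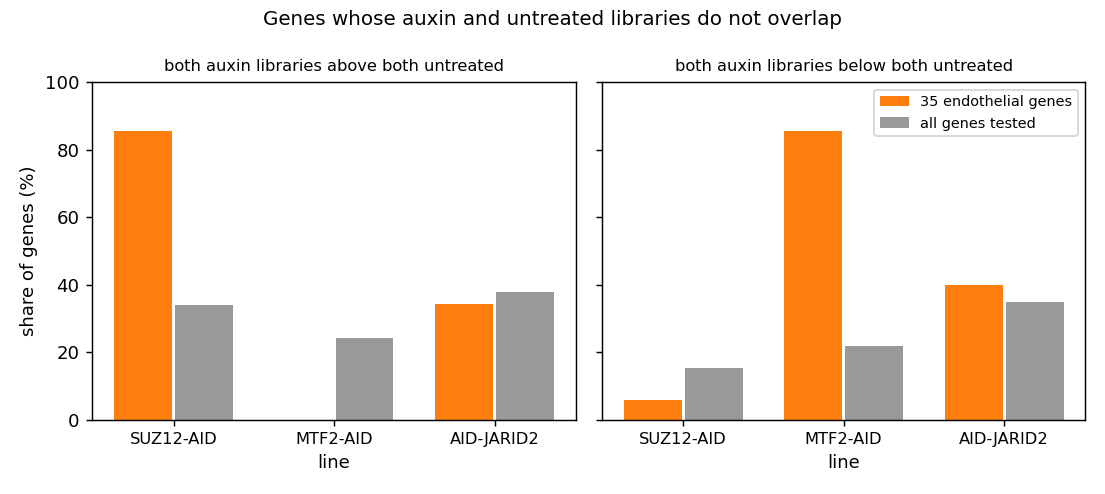
Share of genes, in percent, whose 2 auxin libraries both lay above (left) or both below (right) the 2 untreated libraries of the line; orange bars are the 35 endothelial genes, grey bars the 15663 genes tested. Of the 35 members, 30 lay above in SUZ12-AID and 30 below in MTF2-AID.

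Tests were made with limma on log2(TPM + 1) over all 15663 genes that reached 1 TPM in 2 or more libraries, with Benjamini-Hochberg adjustment. Of the 35 members 33 passed this filter, and Lyve1 and Gja5 did not. In SUZ12-AID 24 members rose and 1 fell at an adjusted p under 0.05, where 15.1% of all genes rose and 4.05% fell. Other scalings shifted that background, to 13.8% and 8.79% under median-of-ratios scaling and to 10.2% and 9.05% under quantile normalization, where 25 and 20 members rose. Quantile normalization lowered the median of all genes to -0.04 and that of the members to 0.93. The median log2 fold change in the test as made was 1.19 over the 33 members and 0.06 over all genes tested. In MTF2-AID 0 rose and 0 fell, where 0.0447% of all genes rose and 0.0192% fell (0.0575% and 0.0511% with quantile normalization), and the medians were -0.70 and 0.01. In AID-JARID2 8 rose and 7 fell, where 19.5% of all genes rose and 17% fell, and the medians were -0.01 and 0.01. Fold changes on this scale understate the change of genes with low TPM.

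**Figure D2:**
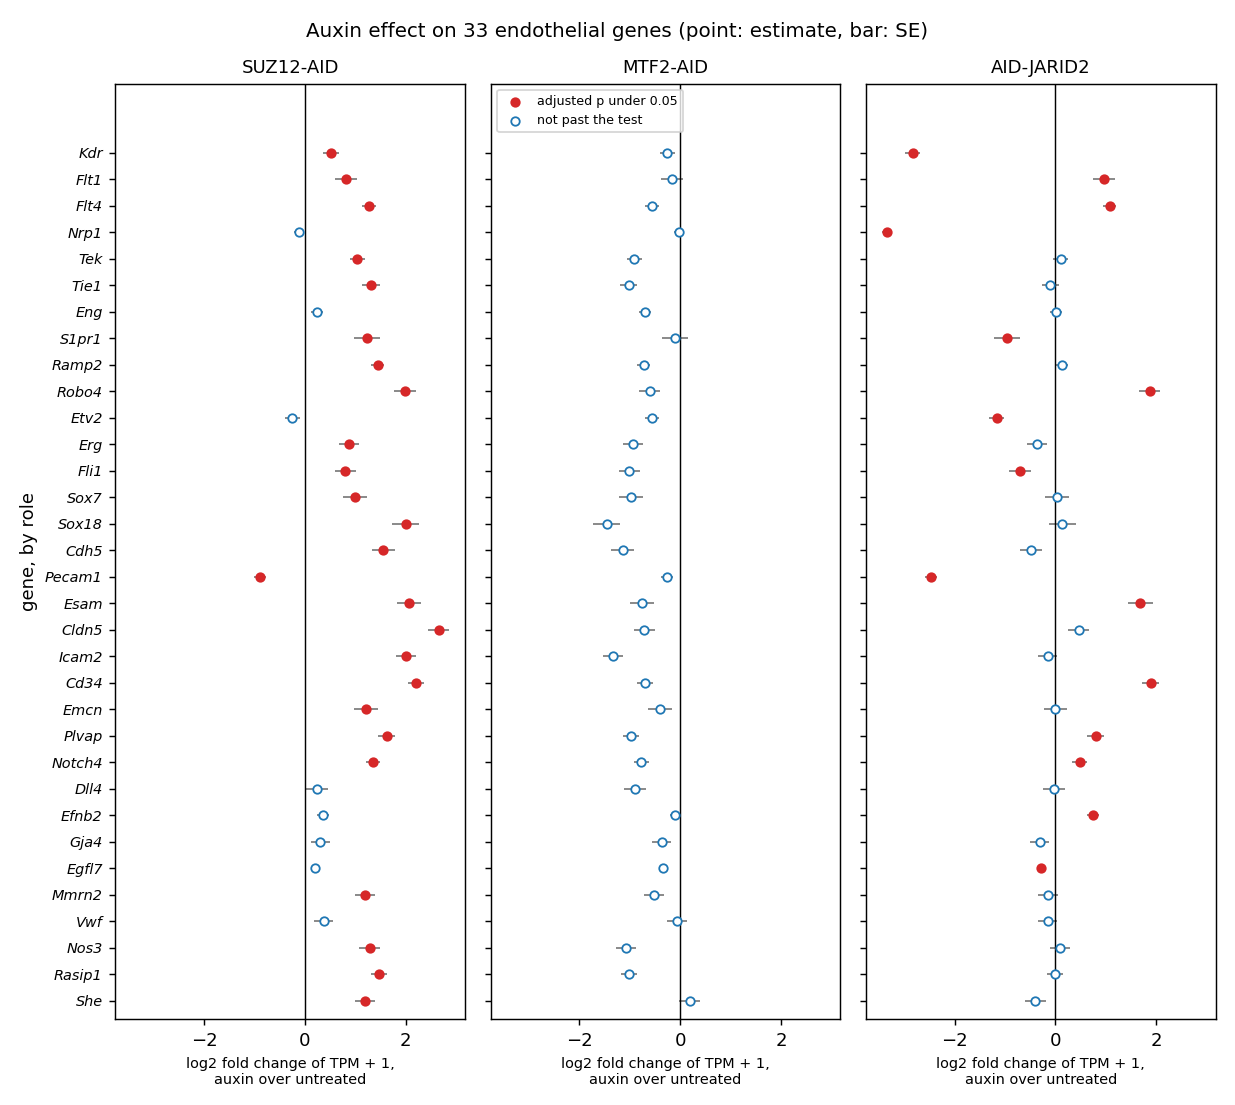
Log2 fold change of TPM + 1, auxin over untreated, for the 33 endothelial genes tested, in the 3 lines; bars are standard errors, filled red points have an adjusted p under 0.05 and open points do not. The points lie right of 0 for most genes in SUZ12-AID, left of 0 for all but She in MTF2-AID, and on both sides in AID-JARID2.

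In SUZ12-AID 8 of the 10 receptors and co-receptors rose, and Eng and Nrp1 did not pass the test. Robo4, a guidance receptor that steadies vessels, had 7.29 and 6.05 TPM with auxin, against 0.673 and 1.23 TPM untreated (log2 fold change 1.98, SE 0.2099, adjusted p = 0.000265). Ramp2, the partner of the adrenomedullin receptor, had 67.3 and 61.4 TPM with auxin, against 25.9 and 20.6 TPM untreated (log2 fold change 1.44, SE 0.133, adjusted p = 0.000145). Both auxin libraries stood well clear of both untreated ones for these genes. The angiopoietin receptor Tek had 5.85 and 7.07 TPM with auxin, against 2.35 and 2.89 TPM untreated, and its relative Tie1 had 11.7 and 11.8 TPM with auxin, against 3.31 and 5.15 TPM untreated, with log2 fold changes of 1.04 and 1.31 (adjusted p = 0.00128 and 0.000794). Flt4, the VEGF receptor of lymphatic growth, had 17.7 and 20.8 TPM with auxin, against 6.499 and 8.35 TPM untreated (log2 fold change 1.27, adjusted p = 0.000244). The increases of the other VEGF receptors were smaller and less firm. Kdr had 61.6 and 67.2 TPM with auxin, against 36.7 and 53.9 TPM untreated (log2 fold change 0.52, SE 0.155, adjusted p = 0.0407), and Flt1, which binds VEGF with little signalling of its own, had 4.69 and 5.73 TPM with auxin, against 1.82 and 3.42 TPM untreated (adjusted p = 0.0251). S1pr1, a sphingosine phosphate receptor of endothelium and lymphocytes, had 10.7 and 11.6 TPM with auxin, against 3.17 and 5.37 TPM untreated (log2 fold change 1.24, SE 0.258, adjusted p = 0.00862). In each of these 3 genes untreated replicate 2 was above replicate 1, and the call was lost without auxin replicate 2 or with a variance weight per line. The Kdr call was also lost without auxin replicate 1, and the Kdr and Flt1 calls without untreated replicate 1. The TGF-beta co-receptor Eng had 35.1 and 39.3 TPM with auxin, against 29.3 and 33.5 TPM untreated, which missed the test (adjusted p = 0.204), and for the VEGF and semaphorin co-receptor Nrp1 the libraries overlapped, at 165 and 161 TPM with auxin, against 159 and 198 TPM untreated.

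On the log2(TPM + 1) scale the largest increases in this line were those of the surface and junction genes Cldn5, Cd34, Esam and Icam2. Cldn5, a tight-junction claudin of vessels, had 20.8 and 14.9 TPM with auxin, against 2.48 and 1.53 TPM untreated (log2 fold change 2.65, SE 0.204, adjusted p = 6.27e-05). Cd34, a sialomucin of endothelial and blood progenitors, had 20.3 and 21.4 TPM with auxin, against 3.04 and 4.55 TPM untreated (log2 fold change 2.21, SE 0.163, adjusted p = 5.86e-05). For both genes the lower auxin library was at least 3 times the higher untreated one. The junction molecule Esam had 18.6 and 15.9 TPM with auxin, against 3.77 and 2.99 TPM untreated (log2 fold change 2.06, SE 0.244, adjusted p = 0.000444) and the adhesion molecule Icam2 13.7 and 17.03 TPM with auxin, against 3.26 and 2.85 TPM untreated (log2 fold change 2.01, SE 0.196, adjusted p = 0.000186). Cdh5 itself, which encodes VE-cadherin, had 18.8 and 23.1 TPM with auxin, against 4.95 and 8.31 TPM untreated (log2 fold change 1.55, SE 0.224, adjusted p = 0.00126). Plvap, which forms the diaphragms of endothelial pores, had 39.6 and 36.6 TPM with auxin, against 12.9 and 10.6 TPM untreated (log2 fold change 1.62, SE 0.167, adjusted p = 0.000245). None of these groups overlapped. The sialoprotein Emcn had 3.13 and 3.503 TPM with auxin, against 0.548 and 1.26 TPM untreated (adjusted p = 0.00626), a call on 6 to 27 reads per library that was lost without auxin replicate 2. Pecam1 was the only member called lower: it had 46.2 and 43.5 TPM with auxin, against 78.00 and 89.6 TPM untreated (log2 fold change -0.88, SE 0.115, adjusted p = 0.000733). Beside it the summed level of 12 pluripotency markers was 370 and 453 TPM with auxin, against 222 and 199.6 TPM untreated, and 9 of the 12 rose. Summed markers of epithelium and trophoblast were 3942 and 4310 TPM with auxin, against 2639 and 2494 TPM untreated, with 7 of 8 tested higher and 1 lower. The part of these cells in the result was not tested.

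The transcription factors of the programme rose, except the one that starts it. Sox18 had 27.6 and 22.2 TPM with auxin, against 3.75 and 7.74 TPM untreated (log2 fold change 2.00, SE 0.269, adjusted p = 0.000894), with untreated replicate 2 well above replicate 1. Sox7 had 2.78 and 4.89 TPM with auxin, against 1.49 and 1.28 TPM untreated (adjusted p = 0.0164). Erg had 3.98 and 4.31 TPM with auxin, against 1.37 and 2.33 TPM untreated (adjusted p = 0.0118) and Fli1 had 5.83 and 5.29 TPM with auxin, against 2.06 and 3.602 TPM untreated (adjusted p = 0.0263). Each of these 3 calls was lost without auxin replicate 2. That of Sox7 was also lost without untreated replicate 2, those of Erg and Fli1 without untreated replicate 1, and that of Fli1 without auxin replicate 1. Etv2 had 10.3 and 11.9 TPM with auxin, against 12.8 and 13.9 TPM untreated and missed the test (log2 fold change -0.25, adjusted p = 0.29). Of the Notch and arterial genes, the receptor Notch4 rose (log2 fold change 1.35, adjusted p = 0.000297), at 4.58 and 3.97 TPM with auxin, against 1.19 and 0.948 TPM untreated. The arterial members did not pass the test as made: the Notch ligand gene Dll4 had 1.14 and 1.89 TPM with auxin, against 1.096 and 1.12 TPM untreated. The ephrin gene Efnb2 had 22.1 and 25.3 TPM with auxin, against 16.3 and 20.5 TPM untreated. It missed the test narrowly (log2 fold change 0.35, adjusted p = 0.0579), with libraries that did not overlap. Efnb2 was called higher with median-of-ratios scaling, voom or a replicate block. The gap-junction gene Gja4 had 3.45 and 4.41 TPM with auxin, against 3.76 and 2.295 TPM untreated, with overlapping libraries. Inside the cell, Rasip1, needed for vessels to open a lumen, had 29.3 and 22.6 TPM with auxin, against 7.28 and 10.3 TPM untreated (log2 fold change 1.47, SE 0.161, adjusted p = 0.000307). Nos3, the nitric oxide synthase of endothelium, had 6.07 and 5.54 TPM with auxin, against 1.595 and 2.02 TPM untreated (log2 fold change 1.28, adjusted p = 0.00196). For Rasip1 and Nos3 the groups were far apart. The adaptor gene She had 4.77 and 4.51 TPM with auxin, against 1.06 and 1.97 TPM untreated (log2 fold change 1.19, adjusted p = 0.00309). The matrix protein gene Mmrn2 rose to 3.002 and 2.17 TPM with auxin, against 0.378 and 0.787 TPM untreated (adjusted p = 0.00284). The secreted factor Egfl7 (121 and 112 TPM with auxin, against 106 and 96.1 TPM untreated) and the clotting factor gene Vwf (1.26 and 1.61 TPM with auxin, against 0.6398 and 1.16 TPM untreated) missed it. With a variance weight per line, which gives this more variable line less weight, 17 members rose and Pecam1 still fell, where 6.25% of all genes rose and 1.37% fell. Markers of other cells moved in this line too. Summed cardiac markers were 1793 and 1571 TPM with auxin, against 2732 and 2949 TPM untreated, with 6 of 10 tested higher and 1 lower. The 1 lower was Hand1, by far the most abundant of these markers in untreated libraries, so that the untreated sums lean on this gene in each line. The 6 higher were Nkx2-5, Tnnt2, Myh6, Myh7, Mef2c and Hand2. Summed blood markers were 99.0 and 106 TPM with auxin, against 117 and 116 TPM untreated, with 2 of 14 higher and 5 lower. Summed mural markers were 235 and 207 TPM with auxin, against 298 and 314 TPM untreated, with 0 of 6 higher and 2 lower. Of 7 endoderm markers only 3 passed the filter, and these 3 rose. Sox17 among them, and Mef2c among the cardiac markers, are also counted with the other endothelial genes below. The part of all these markers in the result was not tested.

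In MTF2-AID 32 of the 33 members tested had a negative log2 fold change and 0 passed the adjusted threshold. At an unadjusted p under 0.05, 24 members were lower and 0 higher, where 5.25% of all genes were lower and 4.25% higher. With a variance weight per line 15 members were called lower, where 0.696% of all genes were. Voom on recovered reads called 5 lower, a pseudocount of 5 called 5 and quantile normalization 2, where 0.0638%, 0.115% and 0.0511% of all genes were. The other alternatives that kept every library of the line called 0. Sox18 had 4.73 and 4.01 TPM with auxin, against 14.6 and 12.7 TPM untreated (log2 fold change -1.45, SE 0.269, adjusted p = 0.0888). Icam2 had 2.09 and 3.33 TPM with auxin, against 8.01 and 8.38 TPM untreated (log2 fold change -1.33, adjusted p = 0.0581). For both the higher auxin library was under the lower untreated one by more than 2-fold. Cdh5 had 5.52 and 5.55 TPM with auxin, against 12.5 and 14.4 TPM untreated (adjusted p = 0.0991). Tie1 had 3.78 and 3.401 TPM with auxin, against 8.12 and 8.53 TPM untreated and Tek had 2.04 and 1.87 TPM with auxin, against 4.54 and 4.53 TPM untreated (adjusted p = 0.0831 and 0.0831). The auxin libraries were the lower ones without overlap in these 3 genes. Erg had 1.55 and 1.37 TPM with auxin, against 4.06 and 3.41 TPM untreated. Fli1 had 2.37 and 1.82 TPM with auxin, against 6.097 and 4.39 TPM untreated. Nos3 had 1.74 and 1.21 TPM with auxin, against 5.22 and 3.35 TPM untreated, again with the auxin libraries lower. The genes that rose most in SUZ12-AID were lower with auxin here, short of the adjusted threshold. Cd34 had 6.93 and 5.59 TPM with auxin, against 11.1 and 10.4 TPM untreated. Esam had 5.28 and 4.04 TPM with auxin, against 8.64 and 8.35 TPM untreated. Cldn5 had 2.01 and 1.77 TPM with auxin, against 4.09 and 3.39 TPM untreated, on 12 to 23 reads. Kdr and Nrp1 differed little in size, though their libraries did not overlap either. Kdr had 58.3 and 59.2 TPM with auxin, against 68.9 and 71.4 TPM untreated and Nrp1 had 96.7 and 95.8 TPM with auxin, against 98.2 and 97.9 TPM untreated, log2 fold changes of -0.25 and -0.03. She was the exception in direction, with 4.95 and 3.54 TPM with auxin, against 3.24 and 3.92 TPM untreated and overlapping libraries (log2 fold change 0.18). Summed blood markers were 77.3 and 66.7 TPM with auxin, against 114 and 106 TPM untreated, with the platelet integrin Itga2b the only one of 14 tested to pass, and their part in the result was not tested. Summed pluripotency markers were 259 and 255 TPM with auxin, against 245 and 259.5 TPM untreated, and summed cardiac markers were 1803 and 1782 TPM with auxin, against 1794 and 1714 TPM untreated, with 0 of either list past the test. Of mural and endoderm markers 0 passed, and of 8 markers of epithelium and trophoblast 1 rose.

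**Figure D3:**
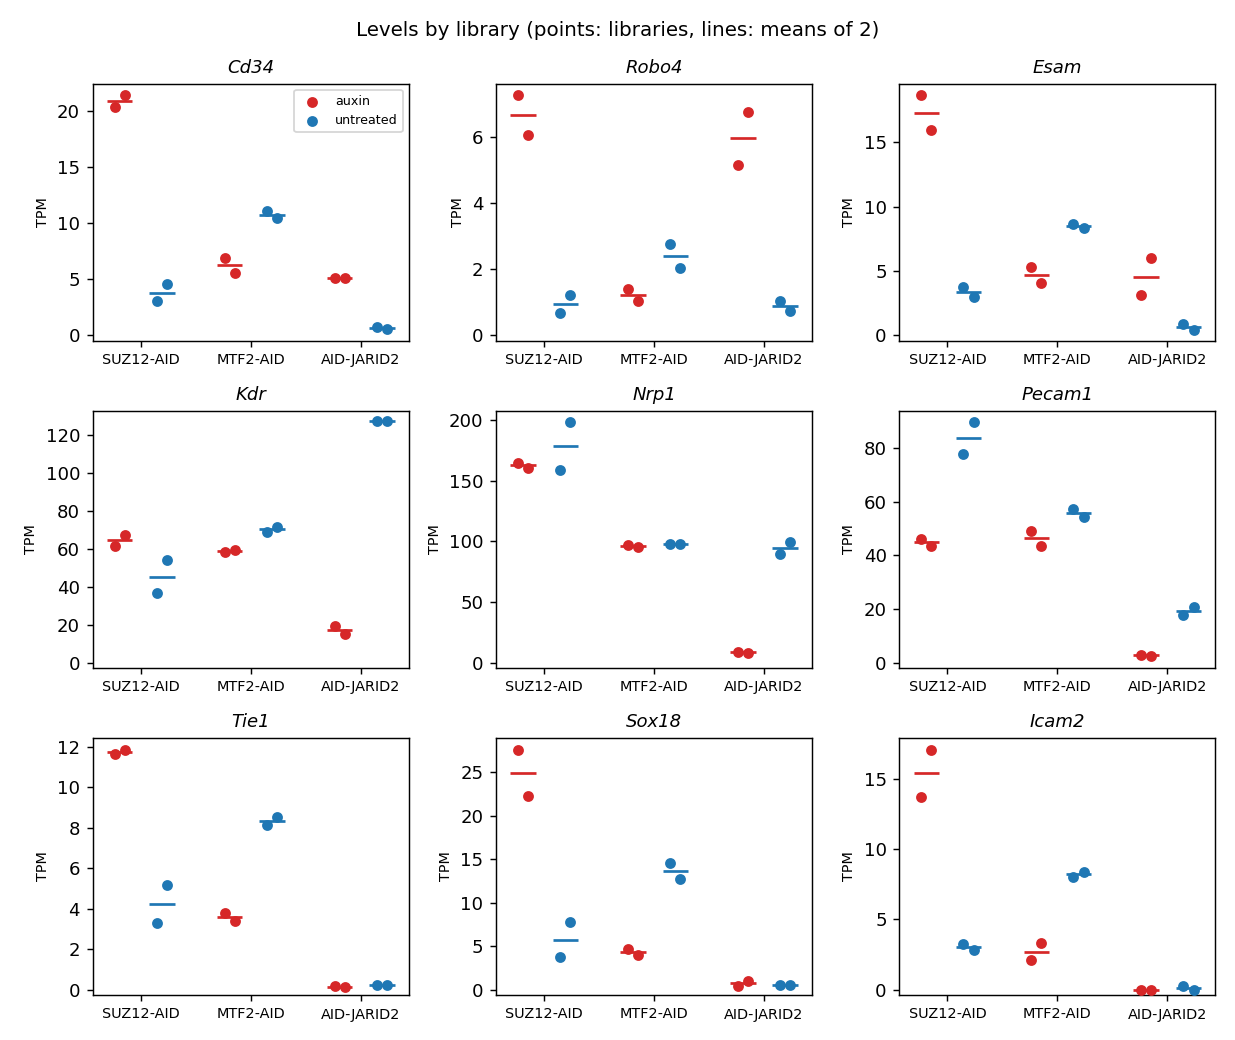
TPM of 9 endothelial genes in each library; points are libraries, short lines the means of 2, red is auxin and blue untreated, for the 3 lines along the axis, each panel with its own linear scale. Cd34, Robo4 and Esam are higher with auxin in SUZ12-AID and AID-JARID2 and lower in MTF2-AID, Kdr, Nrp1 and Pecam1 are far lower with auxin in AID-JARID2, and Tie1, Sox18 and Icam2 are close to 0 in AID-JARID2 with and without auxin.

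In AID-JARID2 members were called in both directions, at shares near those of all genes, so what follows describes single genes and not the set. Nrp1 had 9.02 and 7.89 TPM with auxin, against 89.99 and 99.2 TPM untreated (log2 fold change -3.34, SE 0.0998, adjusted p = 8.84e-09). Kdr had 19.2 and 15.04 TPM with auxin, against 127 and 127 TPM untreated (log2 fold change -2.83, SE 0.155, adjusted p = 5.1e-07), and its 2 untreated libraries held the highest Kdr levels of the 12. Pecam1 fell as well, at 3.01 and 2.35 TPM with auxin, against 17.96 and 20.6 TPM untreated (log2 fold change -2.47, SE 0.115, adjusted p = 1.62e-07). In these 3 genes every auxin library was far under either untreated one. The S1P receptor gene S1pr1 had 0.703 and 0.857 TPM with auxin, against 2.99 and 1.995 TPM untreated (log2 fold change -0.96, SE 0.258, adjusted p = 0.0154). Etv2 had 5.35 and 5.23 TPM with auxin, against 11.7 and 14.6 TPM untreated (log2 fold change -1.17, SE 0.145, adjusted p = 0.000153). Fli1 had 0.417 and 0.467 TPM with auxin, against 1.27 and 1.42 TPM untreated (log2 fold change -0.70, SE 0.215, adjusted p = 0.0276). The call of Fli1 was lost without any 1 of the 4 libraries of the line, and that of S1pr1 without either auxin library or untreated replicate 1. Egfl7 lost its call without auxin replicate 2 or untreated replicate 1. It had 57.9 and 54.1 TPM with auxin, against 74.6 and 63.2 TPM untreated (adjusted p = 0.0214). Without either library fewer members, and fewer of all genes, were called lower.

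Other members rose in the same cultures. Cd34 had 5.08 and 5.13 TPM with auxin, against 0.735 and 0.576 TPM untreated (log2 fold change 1.88, SE 0.163, adjusted p = 1.27e-05). Robo4 had 5.17 and 6.77 TPM with auxin, against 1.05 and 0.752 TPM untreated (log2 fold change 1.87, SE 0.2099, adjusted p = 7.67e-05). Esam had 3.14 and 5.98 TPM with auxin, against 0.929 and 0.463 TPM untreated (log2 fold change 1.68, SE 0.244, adjusted p = 0.000434). The lowest auxin library was above 3 times the highest untreated one in each of them. Flt4 had 22.3 and 22.2 TPM with auxin, against 9.89 and 10.2 TPM untreated (log2 fold change 1.07, SE 0.1301, adjusted p = 0.000127). Flt1 had 10.1 and 10.2 TPM with auxin, against 4.52 and 4.98 TPM untreated (log2 fold change 0.96, SE 0.214, adjusted p = 0.00596), so that these VEGF receptors rose where Kdr fell. Plvap had 4.35 and 5.398 TPM with auxin, against 2.72 and 2.03 TPM untreated (adjusted p = 0.004). The arterial ephrin gene Efnb2 had 29.4 and 30.4 TPM with auxin, against 17.9 and 17.02 TPM untreated (adjusted p = 0.000635). Notch4 had 1.77 and 1.85 TPM with auxin, against 1.01 and 1.01 TPM untreated (adjusted p = 0.0275), the smallest of the 8 increases on the log2 scale. The Notch4 call was lost in each fit that left out a library of the line.

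Several members that define endothelium were near the limit of detection in this line, with and without auxin, so that the label endothelial rests there on few reads. Tie1 had 0.183 and 0.118 TPM with auxin, against 0.248 and 0.223 TPM untreated, which rest on 4 and 3 reads with auxin and 5 and 4 reads untreated. Icam2 had 0 reads in both auxin libraries, and 2 and 0 reads untreated, and 3 reads would be 0.339 and 0.291 TPM in the auxin libraries. Emcn had 0 reads in all 4 libraries of the line. These 3 genes gave too few reads for a change to be detected. Cdh5 had 0.439 and 0.302 TPM with auxin, against 1.24 and 0.641 TPM untreated. Sox18 had 0.439 and 1.04 TPM with auxin, against 0.595 and 0.533 TPM untreated. Erg had 0.145 and 0.167 TPM with auxin, against 0.631 and 0.354 TPM untreated, and none of the 3 passed the test as made. Cdh5 was called lower with a pseudocount of 0.1, quantile normalization, a variance weight per line or a replicate block. Erg was called lower with a pseudocount of 0.1. Mmrn2, Dll4, Nos3, Vwf, Gja4, Tek and Sox7 missed it as well, all at 1.41 TPM or less in every library of the line. Cldn5 had 0.501 and 0.647 TPM with auxin, against 0.136 and 0.152 TPM untreated, on 4 and 6 reads with auxin and 1 and 1 read untreated (adjusted p = 0.109). It was called higher with a pseudocount of 0.1, a variance weight per line or a replicate block. Other members were well detected and missed the test. Eng had 9.64 and 9.41 TPM with auxin, against 10.1 and 8.76 TPM untreated. Ramp2 had 9.16 and 10.9 TPM with auxin, against 9.05 and 9.16 TPM untreated. Rasip1 had 5.800 and 6.49 TPM with auxin, against 6.48 and 5.89 TPM untreated, and the log2 fold changes of these 3 genes were 0.02, 0.12 and -0.01. She had 2.595 and 2.13 TPM with auxin, against 3.32 and 3.53 TPM untreated (adjusted p = 0.158). Summed pluripotency markers were 3300 and 3351 TPM with auxin, against 808 and 802 TPM untreated, with 11 of 12 higher and 1 lower. Summed cardiac markers were 171 and 147 TPM with auxin, against 2087 and 2011 TPM untreated, with 0 of 10 tested higher and 7 lower. Hand1, on which the untreated sum leans, was among the 7. Summed blood markers were 37.2 and 42.2 TPM with auxin, against 35.01 and 33.2 TPM untreated, with 4 of 14 higher and 3 lower. Of mural markers 2 of 6 tested rose and 3 fell, of endoderm markers 1 of 3 rose and 1 fell, and of epithelium and trophoblast markers 5 of 8 rose and 3 fell. Their part in the result was not tested.

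Lyve1 and Gja5 were below the filter. Lyve1, a hyaluronan receptor of lymphatic vessels, had 15 reads in each SUZ12-AID auxin library, against 3 and 0 untreated, 4 and 8 in MTF2-AID with auxin, against 8 and 7 untreated, and at most 1 in AID-JARID2. With no filter its log2 fold change was 0.99 in SUZ12-AID (adjusted p = 0.00236). Gja5, an arterial gap-junction gene, had 1 to 18 reads per library and passed in 0 lines with no filter.

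Effects were then compared between lines, each with its own untreated libraries. The auxin effect was lower in MTF2-AID than in SUZ12-AID for 25 members and higher for 1, where 9.11% and 2% of all genes were so (8.89% and 3.92% with median-of-ratios scaling, 6.7% and 3.66% with quantile normalization). The largest differences on the log2 scale were those of Sox18 (-3.45, adjusted p = 0.00077), Cldn5 (-3.36, adjusted p = 0.000282) and Icam2 (-3.34, adjusted p = 0.000259), followed by Cd34 and Esam. The gene on the other side was Pecam1 (0.62, adjusted p = 0.0362), a call lost under most alternatives. Between AID-JARID2 and SUZ12-AID 22 members had the lower effect in AID-JARID2 and 0 the higher, where 15% and 9% of all genes did (13.1% and 13.4% with quantile normalization). Of the 22, 8 had fewer than 20 reads in every AID-JARID2 library, a limit set after the values were seen, and these were Cldn5, Emcn, Erg, Icam2, Mmrn2, Nos3, Sox18 and Tie1. With so few reads a fall could hardly show in AID-JARID2 on the log2(TPM + 1) scale, and the difference in these 8 genes mostly restates their rise in SUZ12-AID. With a pseudocount of 0.1 Erg was called lower and Cldn5 higher in AID-JARID2. Among members with 20 or more reads in some library of both lines, also 22 in number, 14 were lower and 0 higher, where 16% and 9.75% of all such genes were. Kdr differed most (-3.35, SE 0.219, adjusted p = 4.97e-06), then Nrp1 (-3.22, adjusted p = 4.38e-07). Kdr, Fli1 and S1pr1 were called higher in SUZ12-AID and lower in AID-JARID2, but all 3 calls in SUZ12-AID were lost without auxin replicate 2, and those of Fli1 and S1pr1 in AID-JARID2 were lost in several fits without 1 library. The 2 effects differed by -0.32 ± 0.231 (SE) for Cd34, -0.12 ± 0.297 for Robo4, -0.39 ± 0.345 for Esam and -0.20 ± 0.184 for Flt4, all short of the test. In AID-JARID2 against MTF2-AID 17 effects were higher and 3 lower, where 12.6% and 11.7% of all genes were. The 17 include Cldn5, Icam2, Nos3, Sox18 and Tie1, which had under 20 reads in every AID-JARID2 library. Their difference mostly restates the lower auxin levels in MTF2-AID, though Cldn5 was called higher in AID-JARID2 under some alternatives. Among the 22 members with 20 or more reads in some library of both of these lines 12 were higher and 3 lower, where 12.9% and 13.6% of all such genes were. Nrp1 (-3.31), Kdr (-2.58) and Pecam1 (-2.20) were the lower ones, and Cd34 (2.58), Robo4 (2.47) and Esam (2.43) led the higher ones.

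The members that rose in both SUZ12-AID and AID-JARID2 were 7, Flt1, Flt4, Cd34, Esam, Robo4, Plvap and Notch4, which is 7 of 24 and 7 of 8, and Pecam1 fell in both. Of all genes tested 6.38% rose in both lines. That is 42.3% of those that rose in SUZ12-AID and 32.7% of those that rose in AID-JARID2. The 7 of 24 is a smaller share than the 42.3%. As 24 of the 33 members tested rose in SUZ12-AID, the 7 of 8 mostly restates that rise. Of the 7, Flt1 lost its call in SUZ12-AID without auxin replicate 2 or untreated replicate 1, and Notch4 lost its call in AID-JARID2 without any 1 of the 4 libraries. Among them Robo4 (mm10, chromosome 9, 37401897 to 37415115, plus strand) and Esam (chromosome 9, 37528078 to 37538319, plus strand) are close neighbours, 113.0 kb apart with Robo3 and Msantd2 between them. Another pair of neighbours moved apart: Icam2 (chromosome 11, 106377656 to 106388075, minus strand) lies 266.1 kb from Pecam1 (106654217 to 106750628, minus strand), and in SUZ12-AID the first rose while the second fell. The 35 members lie on 13 chromosomes. For 11 of them, among which Cd34, Cdh5, Fli1 and Plvap, the annotation has an overlapping gene on the other strand, and whether reads were counted by strand is not known here.

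**Figure D4:**
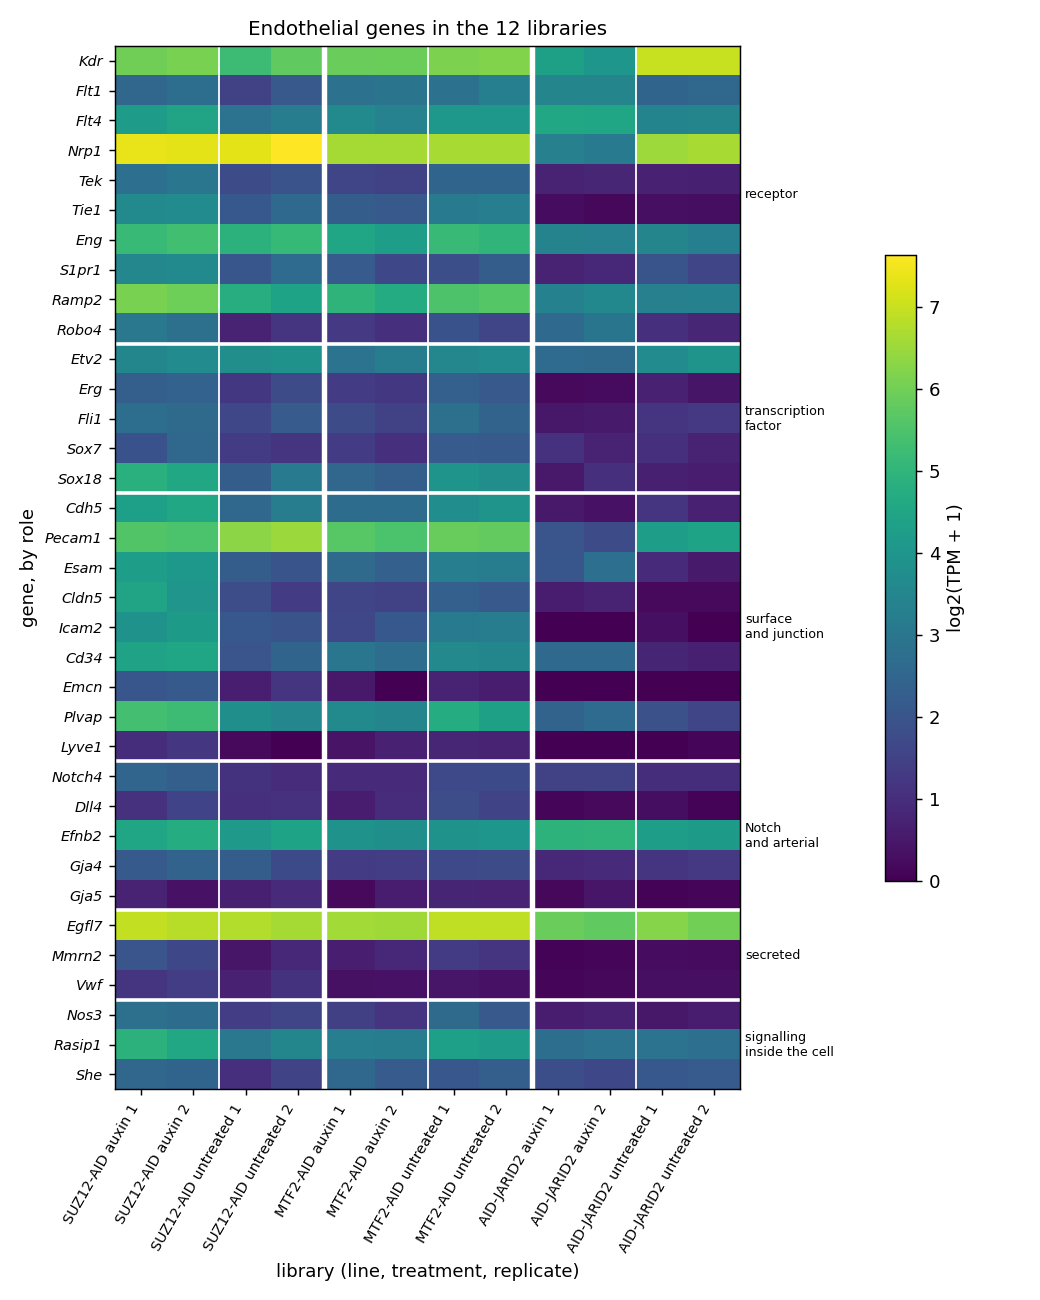
Level of the 35 endothelial genes, as log2(TPM + 1) from dark (0) to yellow, in the 12 libraries, with genes in rows by role and libraries in columns by line, auxin left of untreated. Most rows are brightest in the SUZ12-AID auxin columns and darkest in the AID-JARID2 columns, while Kdr is brightest in untreated AID-JARID2.

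The lines differed before any auxin was given. Untreated MTF2-AID had 19 members higher and 2 lower (Pecam1 and Nrp1) than untreated SUZ12-AID, where 5.5% and 3.15% of all genes were so (4.9% and 4.62% with median-of-ratios scaling, 5.17% and 5.02% with quantile normalization). Cd34 had 11.1 and 10.4 TPM in untreated MTF2-AID and 3.04 and 4.55 TPM in untreated SUZ12-AID (log2 fold change 1.31, SE 0.163, adjusted p = 0.00152). Flt1, Icam2, Sox18 and Esam were next, with log2 fold changes of 1.24, 1.18, 1.18 and 1.12. Of these calls Sox18 and Esam were lost without either untreated MTF2-AID library, Sox18 also without untreated SUZ12-AID replicate 1, and Flt1 without untreated MTF2-AID replicate 2. Icam2 and Sox18 were lost with a pseudocount of 0.1, Sox18 and Esam with no filter, and Esam with a variance weight per line. The 19 calls became 10 with a variance weight per line, where 3.56% of all genes were called higher. Fewer members, and fewer of all genes, were called higher without untreated SUZ12-AID replicate 1 or either untreated MTF2-AID library. Without untreated SUZ12-AID replicate 2 more of both were. The median log2 fold change of the members was 0.72 with all libraries. It was 0.60 and 0.82 without untreated SUZ12-AID replicate 1 and 2, and 0.65 and 0.78 without untreated MTF2-AID replicate 1 and 2. The median over all genes was 0.07 with all libraries. It was 0.0007 and 0.13 without untreated SUZ12-AID replicate 1 and 2. Untreated AID-JARID2 had 21 members lower and 4 higher than untreated SUZ12-AID, where 12.4% and 15.2% of all genes were so. Tie1 averaged 0.235 ± 0.0181 TPM in untreated AID-JARID2 and 4.23 ± 1.302 TPM in untreated SUZ12-AID (SD, n = 2 each; log2 fold change -2.06, adjusted p = 2.18e-05). Pecam1 averaged 19.3 ± 1.89 and 83.8 ± 8.21 TPM in the same lines (log2 fold change -2.06, adjusted p = 1.63e-06). The 4 higher ones were Kdr, Flt1, Flt4 and She, of which Kdr was the only one called without untreated SUZ12-AID replicate 1 or without either untreated AID-JARID2 library. Against untreated MTF2-AID, 23 members were lower in untreated AID-JARID2 and Kdr was higher, where 17.6% and 15.8% of all genes were so. Sox18 averaged 0.564 ± 0.0434 TPM in untreated AID-JARID2 and 13.7 ± 1.34 TPM in untreated MTF2-AID (log2 fold change -3.23, adjusted p = 1.52e-05). Kdr averaged 127 ± 0.0162 TPM in untreated AID-JARID2 and 70.2 ± 1.77 TPM in untreated MTF2-AID (log2 fold change 0.85, adjusted p = 0.0022).

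Genes that work with the members were counted from further lists. The shares of all genes called higher and lower, against which the counts are to be read, were 15.1% and 4.05% for SUZ12-AID. They were 0.0447% and 0.0192% for MTF2-AID and, for AID-JARID2, 19.5% and 17%. Of 35 tested among 43 other endothelial genes, SUZ12-AID had 22 higher and 0 lower, MTF2-AID had 0 higher and 0 lower, and AID-JARID2 had 4 higher and 12 lower. Their median log2 fold changes were 0.60, -0.26 and -0.09. In SUZ12-AID the repressor gene Bcl6b led, at 4.05 and 4.93 TPM with auxin, against 0.788 and 0.949 TPM untreated (log2 fold change 1.55), followed by the scavenger receptor Stab1 and the venous factor Nr2f2. Bcl6b rose in AID-JARID2 also, at 13.00 and 13.9 TPM with auxin, against 2.59 and 2.898 TPM untreated (log2 fold change 1.95, adjusted p = 8.68e-06). The ETS factor Ets1 fell there, at 9.35 and 7.79 TPM with auxin, against 32.3 and 35.1 TPM untreated (log2 fold change -1.86), as did Prox1, the factor of lymphatic identity, at 2.997 and 2.92 TPM with auxin, against 10.6 and 11.8 TPM untreated (log2 fold change -1.62). Of 8 vascular ligands, SUZ12-AID had 1 higher and 1 lower, MTF2-AID 0 and 0, and AID-JARID2 1 higher and 3 lower. Apelin (Apln), a peptide made by sprouting endothelium, had 49.3 and 54.2 TPM with auxin, against 8.01 and 7.47 TPM untreated in AID-JARID2 (log2 fold change 2.59, SE 0.1796, adjusted p = 2.64e-06) and 3.698 and 4.29 TPM with auxin, against 1.72 and 2.51 TPM untreated in SUZ12-AID (log2 fold change 0.69, adjusted p = 0.0231). Vegfc, the ligand of FLT4, had 3.68 and 3.17 TPM with auxin, against 12.4 and 16.1 TPM untreated in AID-JARID2 (log2 fold change -1.78, SE 0.144, adjusted p = 8.12e-06) and 25.4 and 27.3 TPM with auxin, against 35.03 and 40.5 TPM untreated in SUZ12-AID (log2 fold change -0.50, adjusted p = 0.0357). Vegfa and Vegfb fell in AID-JARID2 by 0.73 and 0.66 on the log2 scale. Of 10 Notch pathway genes tested, SUZ12-AID had 1 higher and 0 lower, MTF2-AID 0 and 0, and AID-JARID2 2 higher and 6 lower. The ligand and Notch counts are small, and those in SUZ12-AID are near the background. The ligand Jag2 rose in both lines, by log2 fold changes of 0.94 in SUZ12-AID and 1.84 in AID-JARID2, and the arterial target Hey2 fell in AID-JARID2, at 2.17 and 2.11 TPM with auxin, against 8.82 and 10.9 TPM untreated (log2 fold change -1.78).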

How the data were processed

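Poly(A) RNA from 12 libraries was sequenced with a stranded dUTP protocol, per the labels' protocols. STAR 2.6.1d and mm10 are named in the submitters' processing notes, while for TPM no program or annotation is given in the sources used here. The authors deposited TPM for 35856 gene rows. Whole reads recovered from the TPM steps gave 100% of values within 0.001 reads of a whole number and 10138920 to 17173072 reads per library. Columns were matched to samples by name. Groups were compared with limma 3.58.1 in R 4.3.3 on log2(TPM + 1), with 1 term per group over all 12 libraries, a mean-variance trend and Benjamini-Hochberg adjustment over the 15663 genes that reached 1 TPM in 2 or more libraries. With 2 libraries per group there were 6 residual degrees of freedom, and precision is limited by that number. The procedure was tested on simulated data.

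Alternatives were other pseudocounts, filters and scalings, a variance weight per line, voom on recovered reads, each line alone, a replicate block and leaving out each library. The members, the related lists (other endothelial genes, ligands, Notch pathway) and the markers (pluripotency, cardiac, blood, mural, endoderm, epithelium and trophoblast) were chosen with earlier results of these data known, and so give no independent support to a direction. Every member is described. Of the related lists the genes with the largest called changes are named. Positions are from GENCODE vM21 (mm10) and promoters from RefSeq. Read counts and floors of 3 reads cover counting error only.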

Additional observations from a re-analysis of the deposited data

Results flagged for a closer look

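The auxin effect on several endothelial genes differed between lines by a test of the difference itself, a limma interaction contrast adjusted over all 15663 genes. The genes named are the 5 with the largest difference in each pair of lines, and those called in opposite directions, chosen after their values were seen. In MTF2-AID minus SUZ12-AID the log2 differences were -3.45 for Sox18 (adjusted p = 0.00077), -3.36 for Cldn5 (adjusted p = 0.000282), -3.34 for Icam2 (adjusted p = 0.000259), -2.90 for Cd34 (adjusted p = 0.000255) and -2.82 for Esam (adjusted p = 0.00114). Each was higher with auxin in both SUZ12-AID libraries and lower in both MTF2-AID libraries.

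In AID-JARID2 minus SUZ12-AID they were -3.35 for Kdr (adjusted p = 4.97e-06), -3.22 for Nrp1 (adjusted p = 4.38e-07), -2.19 for S1pr1 (adjusted p = 0.00189), -2.19 for Cldn5 (adjusted p = 0.000479), -2.16 for Icam2 (adjusted p = 0.000403) and -1.50 for Fli1 (adjusted p = 0.00558). Icam2 rests on 0 to 2 reads per library in AID-JARID2, too few to show a change there, so its value mostly restates the rise in SUZ12-AID. Cldn5 rests on 1 to 6 reads per library there. It was called higher in AID-JARID2 with a pseudocount of 0.1, a variance weight per line or a replicate block. The difference of Cldn5 missed the test with voom. Kdr, S1pr1 and Fli1 were called in opposite directions in these lines, but all 3 calls in SUZ12-AID were lost without auxin replicate 2, the Fli1 call in AID-JARID2 without any 1 library of the line, and the S1pr1 call there without either auxin library or untreated replicate 1.

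In AID-JARID2 minus MTF2-AID they were -3.31 for Nrp1 (adjusted p = 2.84e-07), 2.58 for Cd34 (adjusted p = 3.3e-05), -2.58 for Kdr (adjusted p = 2.32e-05), 2.47 for Robo4 (adjusted p = 0.00022) and 2.43 for Esam (adjusted p = 0.000633). The lines differ in their untreated levels of the same genes, and the part of that difference in these values was not tested.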

How the results depend on the processing

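The calls followed gene by gene were the 25 in SUZ12-AID, of which 18 held under all alternatives, the 15 in AID-JARID2, of which 11 held, the 16 differences listed for a closer look, of which 15 held (all but Cldn5), and 15 between untreated lines, of which 11 held (all but Esam, Flt1, Icam2 and Sox18). None of these changed direction. Those between untreated lines were the 5 called members with the largest change in each pair, and the other calls there were not followed. All losses among them were in untreated MTF2-AID against untreated SUZ12-AID, where Cd34 was the only 1 of the 5 to hold. Leaving out 1 library gave 17 to 24 members higher and 1 to 2 lower in SUZ12-AID, 4 to 6 lower in AID-JARID2, 0 to 1 higher in MTF2-AID minus SUZ12-AID and 0 to 1 higher in AID-JARID2 minus SUZ12-AID. Among untreated lines it gave 6 to 20 higher and 1 to 3 lower in MTF2-AID against SUZ12-AID, and 1 to 4 higher in AID-JARID2 against SUZ12-AID. The share of all genes called higher moved with the members' count in SUZ12-AID and between untreated MTF2-AID and SUZ12-AID. Those ranges of members higher are therefore no result of the members alone. Without 1 library of SUZ12-AID the median log2 fold change in that line lay between 0.93 and 1.28 over the members. Over all genes it lay between 0.01 and 0.15. Members lower in MTF2-AID numbered 5 with a pseudocount of 5, 2 with quantile normalization, 15 with a variance weight per line and 5 with voom, against 0 as reported. The shares of all genes lower in these fits were 0.115%, 0.0511%, 0.696% and 0.0638%, against 0.0192%. The weights themselves were 0.5 for SUZ12-AID, 1.29 for MTF2-AID and 1.54 for AID-JARID2. Quantile normalization gave 2 lower in SUZ12-AID, where 9.05% of all genes were. The 1 member higher in MTF2-AID minus SUZ12-AID became 0 with a pseudocount of 0.1, no filter, the weight or the block. In AID-JARID2 minus SUZ12-AID 1 was higher with median-of-ratios scaling, quantile normalization or voom. Untreated MTF2-AID against SUZ12-AID had 10 higher with no filter and 10 with the weight, where 2.43% and 3.56% of all genes were. It had 4 lower with voom, where 4.65% of all genes were. Untreated AID-JARID2 against SUZ12-AID had 2 higher with a pseudocount of 5 and 2 with no filter. Untreated AID-JARID2 against MTF2-AID had 2 higher with median-of-ratios scaling, quantile normalization, the weight or voom. The cause was not tested. Over all genes tested, same-numbered replicates did not deviate together (r = 0.0958 in SUZ12-AID, -0.0388 in MTF2-AID and 0.00803 in AID-JARID2). A value over all genes cannot show a pairing that acts on some of them. With the replicate as a block SUZ12-AID had 26 members higher and 1 lower, where 16.2% and 5.06% of all genes were. MTF2-AID had 0 either way, where 0.0192% and 0.00638% of all genes were higher and lower. AID-JARID2 had 9 higher and 8 lower, where 21.6% and 18.8% of all genes were.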
